A study of Drosophila melanogaster with 24 samples.

Results

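At 241 places in the genome of the early Drosophila melanogaster embryo, Spt3 was called reproducibly while Ada2b and Sgf11 were not. These sites were chosen by the peaks measured in 10 ChIP-seq libraries, 4 of Ada2b, 3 of Spt3 and 3 of Sgf11. A peak was kept when at least 1 other library of the same factor had a peak that overlapped it by 1 bp or more. Kept peaks of the 3 factors were merged into 6040 sites, and a site was chosen when it overlapped a kept Spt3 peak and no kept Ada2b or Sgf11 peak. The 241 sites are 3.99% of all sites. The other 2140 sites with a kept Spt3 peak served as their reference, and they comprise 1649 sites with all 3 factors, 384 with Sgf11 but not Ada2b and 107 with Ada2b but not Sgf11.

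SAGA is a coactivator complex built from modules that act on chromatin around gene promoters. Ada2b belongs to the histone acetyltransferase module, which acetylates histone H3, and Sgf11 and the ubiquitin protease Non-stop belong to the deubiquitinase module, which removes ubiquitin from histone H2B. Spt3 belongs to the SPT module, which in yeast delivers the TATA-binding protein to promoters.

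The embryos were aged 1 to 3 h, and the labels give them no genotype, strain or treatment that differs between libraries. Beside the 10 libraries named above there were 2 of RNA polymerase II (Pol II) and 2 of Non-stop, which makes 14 ChIP libraries, and the 10 total chromatin samples of the series were not analysed here. Each library has a number such as 1530_1, and nothing states that libraries came from separate embryo collections, so the spread between them may be technical. Each antibody was used on chromatin of whole embryos, so strong binding in few nuclei and weak binding in many cannot be told apart. Pol II was captured with antibody 4H8, whose epitope lies in the repeat of the carboxy-terminal domain.

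Only peak lists were analysed, and the depth of the libraries is unknown. The lists held between 1563 and 12073 peaks, and the lowest −log10 q in a list lay between 2.01 and 2.29, so weaker enrichment counted as no peak. The 3 Spt3 lists were of unequal length. Spt3 1760_2 held 6311 peaks, of which 39.5% were kept, while Spt3 1530_1 held 2025 peaks (99.1% kept) and Spt3 1530_2 held 2328 (86.2% kept). Wilson intervals given below cover counting error over sites only.

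The peaks of Ada2b, Spt3 and Sgf11 made the choice, and their values at the 241 sites are given as a description with no test. Spt3 peaks at the 241 sites were weaker than those at the other Spt3 sites in every Spt3 library. The median fold enrichment over background was 2.51 against 2.67 in Spt3 1530_1, 2.28 against 2.60 in 1530_2 and 3.02 against 4.17 in 1760_2. Ranked by score within its own list, the median peak stood at percentile 44.4 against 54.1, 34.5 against 59.4 and 54.4 against 81.7 in the same libraries. The 241 sites had a median width of 417 bp (range 206 to 1892 bp) and the other Spt3 sites 780.5 bp, and the wider sites are joined from the peaks of 2 or 3 factors. When Spt3 sites were divided by their mean percentile into 5 groups of equal size, the 241 sites made up 23.7% of the weakest group and 1.26% (6 sites) of the strongest.

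**Figure D1:**
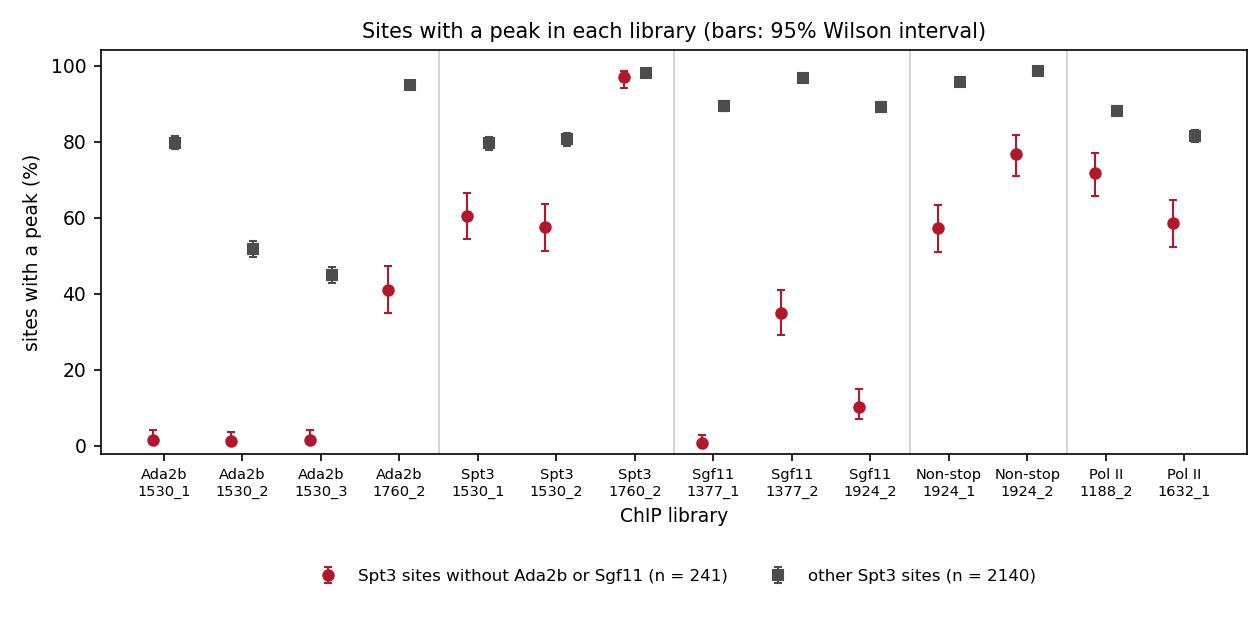
The share of sites with a peak (vertical axis, percent) is plotted for each of the 14 libraries, with the 241 Spt3 sites without Ada2b or Sgf11 in red circles and the other 2140 Spt3 sites in grey squares. The red points stand at 57.3% and 76.8% in the Non-stop libraries and at 71.8% and 58.5% in the Pol II libraries, below the grey points of each, and at 41.1% in Ada2b 1760_2 against at most 1.66% in the other Ada2b libraries.

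Non-stop, whose peaks played no part in the choice, was called at most of the 241 sites but less often than at the other Spt3 sites. Sgf11 1924_2, which did enter the choice, has the same number as Non-stop 1924_2. Non-stop peaks lay on 138 of the 241 sites (57.3%) in library 1924_1 and on 185 (76.8%) in 1924_2, against 95.8% and 98.5% of the other Spt3 sites. Over all 6040 sites these shares were 77% and 93.3%, so the 241 sites fell below the background of the series as well. The mean share over the libraries was 67.0 ± 13.8% at the 241 sites and 97.1 ± 1.88% at the other Spt3 sites (SD, n = 2 libraries), a difference of -30.1 ± 11.9 percentage points. The difference was -38.5 points in 1924_1 and -21.7 points in 1924_2, and the exact two-sided sign-flip permutation test over the 2 libraries gave p = 0.5, the smallest value that 2 libraries allow.

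A peak in both Non-stop libraries was found at 135 of the 241 sites (56.0%, 95% Wilson interval 49.7 to 62.1%), against 2046 of the other 2140 (95.6%) and 76.1% of all sites. No Non-stop peak was found at 53 of the 241 sites (22.0%), against 29 of the other Spt3 sites (1.36%). The Non-stop peaks that were present were also weaker than at the other Spt3 sites as a whole. Their median fold enrichment was 3.28 in 1924_1 and 3.23 in 1924_2, against 5.77 and 7.54 at the other Spt3 sites, and their median percentile differed by -32.1 ± 2.98 points (SD over 2 libraries, exact sign-flip p = 0.5). Within 200 bp around the summit of the strongest Spt3 peak, which removes the difference in site width, the share with Non-stop differed by -32.2 points, and weighting the other Spt3 sites to the same 5 groups of Spt3 strength gave -28.8 points. Against the 107 sites with Spt3 and Ada2b but no Sgf11 the difference was -11.0 ± 11.8 points (-19.4 in 1924_1 and -2.68 in 1924_2), less than its spread between the libraries. The difference was -8.87 ± 6.07 points against the sites with Sgf11 alone and -8.83 ± 2.93 points against those with Ada2b alone. Where Non-stop was called at the 107 sites, its median fold was 3.18 and 3.07.

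Against the other Spt3 sites as a whole, Pol II differed less. Its peaks lay on 173 of the 241 sites (71.8%) in library 1188_2 and on 141 (58.5%) in 1632_1, against 88.1% and 81.6% of the other Spt3 sites and 79% and 66.5% of all sites. The mean share was 65.1 ± 9.39% at the 241 sites and 84.8 ± 4.59% at the other Spt3 sites, a difference of -19.7 ± 4.80 points (SD, n = 2 libraries, exact sign-flip p = 0.5). A peak in both Pol II libraries was found at 138 of the 241 sites (57.3%, 50.9 to 63.3%), against 1713 of the other Spt3 sites (80.0%) and 65.8% of all sites, and no Pol II peak at 65 (27.0%) against 222 (10.4%).

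Where Pol II was called at the 241 sites, its median strength was close to that at the other Spt3 sites. The median fold enrichment was 9.70 in 1188_2 and 6.24 in 1632_1, against 9.70 and 5.65 at the other Spt3 sites, and the median percentile differed by 1.43 ± 0.858 points (exact sign-flip p = 0.5). Non-stop peaks at the 241 sites were near the middle of their lists, at median percentiles of 51.9 and 53.4, while Pol II peaks were near the top, at 90.6 and 91.9. Against sites with Ada2b alone, Pol II was more frequent at the 241 sites by 11.4 ± 2.77 points, and against sites with Sgf11 alone the difference was -2.97 ± 2.81 points (SD, n = 2 libraries each). Against the 107 sites with Spt3 and Ada2b but no Sgf11 it was -22.7 ± 22.6 points (-6.72 in 1188_2 and -38.7 in 1632_1).

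These differences depended on which Spt3 libraries chose the sites. Without Spt3 1530_1, 132 sites remained, with a Pol II share of 85.6% against 87.4%, a difference of -1.80 points, and a Non-stop difference of -15.7 points. Without Spt3 1530_2 there were 140 sites, and the differences were -37.8 points for Pol II and -46.2 points for Non-stop. Without Sgf11 1924_2 the differences were -13.1 points for Pol II and -24.9 points for Non-stop. With only as many of the strongest peaks in every list as the shortest list holds (1563), the differences were -8.19 points for Pol II and -10.2 points for Non-stop. With the upper 50% of each list by score they were -4.06 and -11.3 points.

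**Figure D2:**
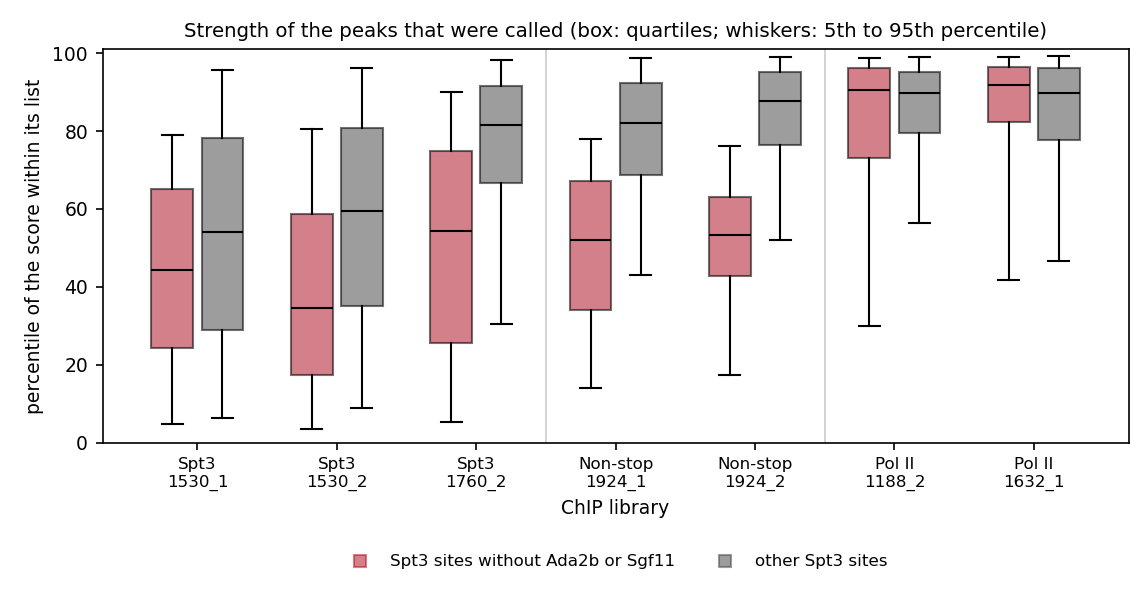
Boxes show the percentile of the score of each called peak within its own list (vertical axis), for the 3 Spt3, 2 Non-stop and 2 Pol II libraries, with the 241 sites in red at the left of each pair and the other Spt3 sites in grey at the right. Non-stop medians are 51.9 and 53.4 at the 241 sites against 81.9 and 87.6, while Pol II medians are 90.6 and 91.9 against 89.7 and 89.8.

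The 241 sites were not uniform, and the Spt3 libraries that called them divided them sharply. Of the 241, 95 (39.4%) had a peak in Spt3 1530_2 and 1760_2 but not 1530_1, 102 (42.3%) in 1530_1 and 1760_2 but not 1530_2, 37 (15.4%) in all 3 libraries, and 7 in 1530_1 and 1530_2 alone. Among the other Spt3 sites, 58.3% had a peak in all 3. This division was made after its values were seen, and no test is given for it.

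The 95 sites called in Spt3 1530_2 and 1760_2 nearly all carried Pol II. Both Pol II libraries had a peak at 91 of them (95.8%, 89.7 to 98.4%), against 30 of the 102 sites called in 1530_1 and 1760_2 (29.4%, 21.4 to 38.9%). Non-stop was called in both libraries at 84 of the 95 (88.4%, 80.4 to 93.4%), against 29 of the 102 (28.4%, 20.6 to 37.8%). Non-stop and Pol II were each present in both libraries at 83 of the 95 sites and at 3 of the 102. The 37 sites with all 3 Spt3 libraries lay between, with Non-stop in both libraries at 20 (54.1%) and Pol II in both at 16 (43.2%).

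Set against the other Spt3 sites called by the same libraries, the 2 groups also parted. For Spt3 1530_2 and 1760_2, Pol II in both libraries was found at 95.8% of the 95 sites and 92.7% of 438 other Spt3 sites. For Spt3 1530_1 and 1760_2 the shares were 29.4% of the 102 sites and 69.6% of 415 other Spt3 sites. The lists as a whole differed in the same direction, since 83.0% of all peaks of Spt3 1530_2 overlapped Pol II in both libraries, against 71.4% of those of 1530_1 and 69.2% of those of 1760_2. Non-stop in both libraries was found at 88.4% of the 95 sites and 95.7% of the 438, and at 28.4% of the 102 and 92.3% of the 415. With all 3 Spt3 libraries the shares were 54.1% of the 37 sites and 99.0% of 1247 other Spt3 sites. Non-stop and Pol II were each in both libraries at 396 of the 438 and 268 of the 415.

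**Figure D3:**
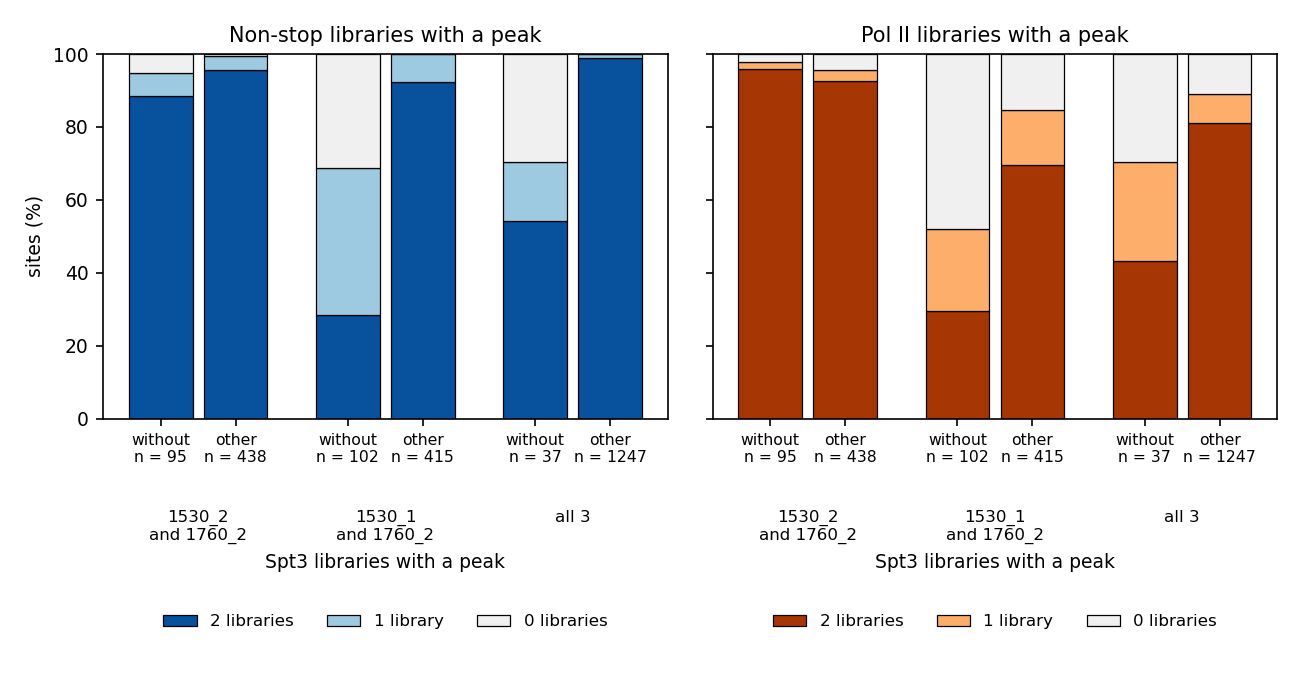
Stacked bars give the percent of sites with a peak in 2, 1 or 0 Non-stop libraries (left panel) and Pol II libraries (right panel), by the Spt3 libraries that had a peak. In each pair the left bar is the 241 Spt3 sites without Ada2b or Sgf11 ("without") and the right bar the other Spt3 sites. Pol II in both libraries covers 95.8% of the 95 sites called in Spt3 1530_2 and 1760_2 and 29.4% of the 102 sites called in 1530_1 and 1760_2.

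The Pol II peaks of the 2 groups differed in form as well. At the 95 sites the median Pol II peak was 6072 bp wide in 1188_2 and 3800 bp in 1632_1, and 68.8% and 56.0% of these peaks were over 2000 bp. At the 102 sites the median widths were 1041 and 926.5 bp. The median fold enrichment of Pol II was 10.8 and 7.09 at the 95 sites, against 5.59 and 2.91 at the 102. The Spt3 summit lay inside the Pol II peak at 92 of 93 sites in 1188_2 and at 91 of 91 in 1632_1 among the 95, but it was over 1000 bp from the Pol II summit at 44 (47.3%) and 35 (38.5%) of them. Some of these sites share a Pol II peak. The 93 sites with a peak in 1188_2 overlapped 83 distinct peaks, and counted once each, these peaks had a median width of 3981 bp, and the 81 distinct peaks in 1632_1 one of 2039 bp. The other Spt3 sites differed in the same direction, with median widths of 4475 and 1949 bp for those called in Spt3 1530_2 and 1760_2 and of 2157 and 623 bp for those called in 1530_1 and 1760_2.

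Spt3 itself was weaker at the 95 sites than at the 102 in the library that both groups share. In Spt3 1760_2 the median fold enrichment was 2.27 (percentile 22.7) at the 95 sites and 3.33 (percentile 64.8) at the 102. The other Spt3 sites called by the same pairs of libraries differed in the same direction, at 3.02 (percentile 57.2) and 3.96 (percentile 78.1). A peak in Ada2b 1760_2 was found at 67 of the 95 sites (70.5%) and 18 of the 102 (17.6%), although neither group had a kept Ada2b peak. At the other Spt3 sites of the same pairs the shares were 97.0% and 88.9%.

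**Figure D4:**
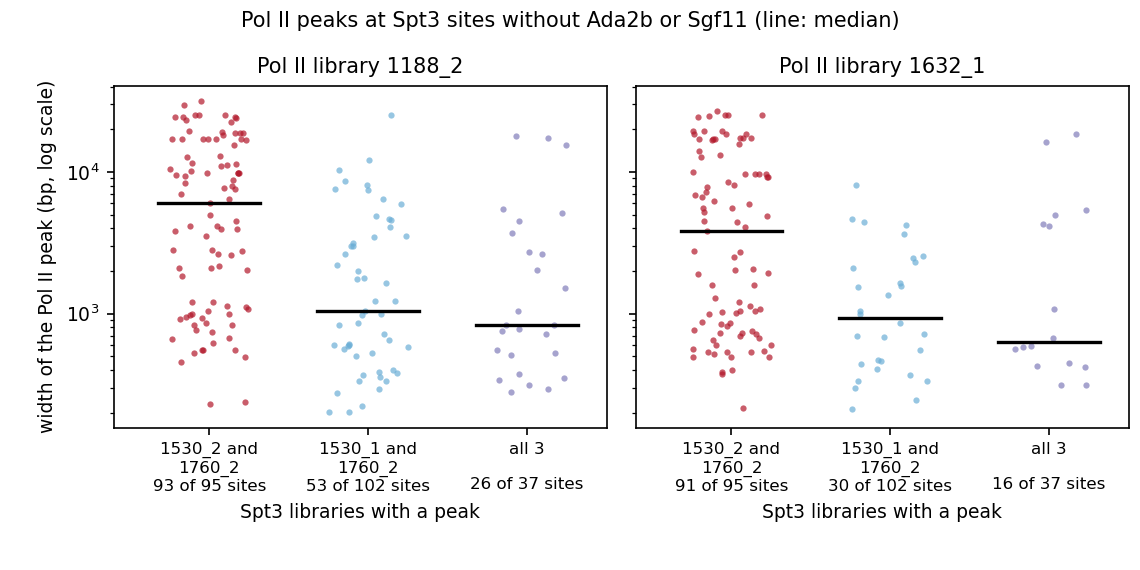
Each point is the width of the Pol II peak (vertical axis, bp, log scale) at 1 of the Spt3 sites without Ada2b or Sgf11, by the Spt3 libraries with a peak (horizontal axis), in Pol II library 1188_2 (left panel) and 1632_1 (right panel); lines are medians. The medians for Spt3 1530_2 and 1760_2, 6072 and 3800 bp, stand above those for 1530_1 and 1760_2, 1041 and 926.5 bp.

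Absence of Ada2b and Sgf11 rested on the call in a second library. A peak in at least 1 Ada2b or Sgf11 library was present at 154 of the 241 sites, and 87 (36.1%) had none. Ada2b was called by 1760_2 at 99 sites (41.1%) and by 1530_1, 1530_2 and 1530_3 at 4, 3 and 4 sites. A peak in Ada2b 1760_2 was also present at 44.5% of the sites with Sgf11 alone and 82.6% of those with Spt3 and Sgf11, which lack a kept Ada2b peak too. Sgf11 was called by 1377_2 at 84 sites, by 1924_2 at 25 and by 1377_1 at 2. At 2 of the sites, 2 Ada2b libraries had peaks that did not overlap each other. These peaks were weak, with a median fold of 2.25 (percentile 23.0) in Ada2b 1760_2 and 2.61 (percentile 15.1) in Sgf11 1377_2, against 3.54 and 9.81 at the other Spt3 sites. The rule left only Ada2b and Sgf11 peaks that were not kept at the 241 sites, so this contrast is not independent of the choice.

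Non-stop and Pol II were not spread evenly over these groups. Of the 65 sites with both an Ada2b and a Sgf11 peak in single libraries, 62 (95.4%) had Non-stop in both libraries and 50 (76.9%) Pol II in both. Of the 43 sites with Ada2b alone in this sense, 31 (72.1%) had Non-stop in both libraries and 37 (86.0%) Pol II. Of the 46 sites with Sgf11 alone, 22 (47.8%) had Non-stop in both and 17 (37.0%) Pol II. Of the 87 sites with neither, 20 (23.0%) had Non-stop in both libraries and 34 (39.1%) Pol II. With absence taken to mean no peak in any Ada2b or Sgf11 library, the share differences for these 87 sites were -57.7 points for Non-stop and -38.3 points for Pol II.

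Libraries of Ada2b and of Spt3 come in pairs with one number, which are 1530_1, 1530_2 and 1760_2. Where the 241 sites had Spt3 in 1760_2, Ada2b of the same number was called at 99 of 234 (42.3%), against 96.6% at the other Spt3 sites. In 1530_1 the count was 2 of 146 and in 1530_2 it was 3 of 139, against 84.4% and 58.5%. The rule excluded kept Ada2b peaks, and 98.2%, 94.6% and 57.5% of the peaks of Ada2b 1530_1, 1530_2 and 1760_2 were kept. Low counts were therefore set largely by the choice, and the values are a description only. The replicate block asks at 2 or more of the 3 paired numbers for Spt3 without Ada2b, and for no kept Sgf11 peak. It does not ask for the absence of a kept Ada2b peak. With this block, 155 sites were found, with a Non-stop difference of -44.4 points and a Pol II difference of -30.6 points. In set 1530 alone, an alternative chosen after seeing the data, 54 sites were found, and the differences were -33.3 and -24.8 points.

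When each library was left out and the sites were chosen from the remaining ones, the library left out gave a peak that had not entered the choice. Ada2b 1760_2 had a peak at 141 of 283 sites so chosen (49.8%, 44.0 to 55.6%), against 94.7% of the other Spt3 sites. The 3 Ada2b libraries of set 1530 had one at 12.2, 8.81 and 7.78%, against 79.5, 51.4 and 44.5%. Spt3 1530_1 and 1530_2 had a peak at 28.0 and 27.1% of the sites chosen without them, against 74.0 and 75.1%. Spt3 1760_2 had a peak at 40 of the 47 sites chosen without it (85.1%), against 96.9%. For Sgf11, 1377_2 called 57.1% of the sites chosen without it, 1924_2 29.4% and 1377_1 17.7%, against 96.7, 88.7 and 89.1%.

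Over the 241 sites together, Non-stop and Pol II tended to be present or absent together, as at all sites. Both were present in both libraries at 100 of the 241 sites (41.5%), against 78.4% of the other Spt3 sites, and both were absent from all 4 libraries at 34 (14.1%), against 3 (0.14%). Among the 53 sites without Non-stop, 34 (64.2%) also lacked Pol II, and among the 135 with Non-stop in both libraries 100 (74.1%) had Pol II in both. Over all 6040 sites the shares were 62.6% and 73.8%, near those at the 241 sites. Joint presence was not seen in each Spt3 group. Among the 102 sites called in Spt3 1530_1 and 1760_2, Non-stop was in both libraries at 29 and Pol II at 30, but together at 3. At these 102 sites Non-stop was absent at 32, Pol II at 49 and both at 22. The median Spt3 percentile was 54.8 at the 53 sites and 37.8 at the 135, given as a description since Spt3 peaks chose the sites. Spt3 was the one factor called in any of the 14 libraries at 31 sites (12.9%), and 8 of them had a peak in all 3 Spt3 libraries.

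Single sites show this range. Positions are given for sites on 2L, 3L, 3R, 4 and X, since the rule for named sites left out 2R. The strongest of the 241 by mean Spt3 percentile was on 2R and was looked up after its values were seen. It had Spt3 at a fold of 5.70, 4.55 and 7.04 in 1530_1, 1530_2 and 1760_2. Non-stop was called in 1924_2 alone at 2.34, Pol II in 1188_2 alone at 1.82 and Ada2b in 1760_2 alone at 1.81. The strongest on the named chromosomes with all 3 Spt3 libraries lay on 3R at 9230363 to 9231057 (dm3, as are all positions here). Its Spt3 fold enrichment was 3.99, 3.61 and 5.59 in 1530_1, 1530_2 and 1760_2. Pol II was strong there, at 10.6 and 6.97, and Non-stop was called at 2.08 and 2.49. The one other peak was in Ada2b 1760_2, at a fold of 1.97. No dm3 gene annotation was used here, so these sites are given by position.

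Sites with comparable Spt3 and no other factor were also found. On 2L at 18615948 to 18616458 the fold enrichment of Spt3 was 3.49, 2.78 and 5.50, and no library of another factor had a peak. The same held on 2L at 11452896 to 11453380 (Spt3 3.61, 2.71 and 4.53) and on 3R at 15164917 to 15165333 (Spt3 2.86, 2.69 and 5.00). A further site of this kind, on 2L at 3861343 to 3861793, had Spt3 in 1530_1 (2.82) and 1760_2 (5.05).

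The next sites by Spt3 strength held a few weak peaks of other factors. On 3R at 4633894 to 4634690, Spt3 stood at 3.54, 2.84 and 6.48, Non-stop 1924_2 at 2.19, Pol II 1188_2 at 2.40 and Sgf11 1377_2 at 2.14. On 3R at 17466954 to 17467713, Spt3 stood at 3.03, 2.73 and 4.98, Non-stop at 2.41 and 2.84, Pol II 1188_2 at 3.22 and Sgf11 1377_2 at 2.06. On 3L at 13042616 to 13043196, Spt3 stood at 2.78, 2.76 and 4.90, Non-stop 1924_2 at 2.20 and Pol II 1188_2 at 2.00. The eighth, on 2L at 18145228 to 18145818, differed from these: its Spt3 fold of 3.76, 2.51 and 3.62 lay within Pol II peaks of 17471 and 16250 bp with folds of 10.8 and 8.95.

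Among sites with Non-stop and Pol II in all 4 libraries, the next by Spt3 strength on the named chromosomes lay on 2L. At 11987872 to 11988465, Spt3 was 3.13 in 1530_1 and 4.63 in 1760_2, Non-stop 2.52 and 3.20, Pol II 7.87 and 2.85, and Sgf11 2.68 in 1377_2. At 19815093 to 19815973, Spt3 was 3.45 in 1530_2 and 4.02 in 1760_2, Non-stop 4.41 and 4.99, and Pol II 9.35 and 5.96. At 10457533 to 10457984, Spt3 was 3.38 in 1530_2 and 3.52 in 1760_2, Non-stop 4.63 and 4.52, and Pol II 11.3 and 8.06. The last 2 had Spt3 in the pair of libraries that marked the 95 sites with Pol II, and both also had a peak in Ada2b 1760_2. Sgf11 was called there too, at 3.44 in 1377_2 and at 2.45 in 1924_2 respectively.

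The widest of the sites on these chromosomes measured 1346 bp, on 3R at 21822041 to 21823386, with Spt3 at 2.57, 1.88 and 4.60 and Pol II at 8.77 and 4.15. Non-stop 1924_2 stood there at 1.72 and Ada2b 1530_1 at 1.87. The second, on 3R at 2588238 to 2589291 (1054 bp), had Spt3 at 2.73, 2.31 and 3.37, Non-stop at 3.63 and 3.19 and Pol II at 9.97 and 5.92. Ada2b 1760_2 was called at this site at 2.12 and Sgf11 1377_2 at 2.62. The third, on 2L at 19446767 to 19447767 (1001 bp), had Spt3 at 2.36 in 1530_2 and 2.03 in 1760_2. It lay inside Pol II peaks of 11350 and 9236 bp and Non-stop peaks of 5513 and 5162 bp.

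The threshold of the choice is an overlap of 1 bp. Just inside it, and on the chromosomes named above, the site on 3R at 7586468 to 7587003 ended 62 bp from a kept Sgf11 peak, and those on 2L at 21309253 to 21309656 and on 3R at 24410733 to 24411113 lay 87 bp from a kept Ada2b and a kept Sgf11 peak. Spt3 1760_2 stood at 4.48, 2.84 and 2.55 at these sites. Just outside it, 3 sites on 3R had an overlap of 39 bp (10103468 to 10104734), 148 bp (21477533 to 21478151) and 181 bp (21009584 to 21010947) between Spt3 and a kept peak of the others, and Spt3 1760_2 stood at 3.37, 1.87 and 4.18.

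Many of the 241 sites lay within a few kilobases of a kept peak of the factors they lacked. The nearest kept Ada2b or Sgf11 peak was a median of 3119 bp away, 25 sites had one within 500 bp and 147 within 5000 bp. The nearest site with all 3 factors was a median of 13906 bp away (32.0% within 5000 bp), against 16981 bp (24.3%) for the other Spt3 sites, measured to another such site. The nearest other member of the 241 was a median of 174405 bp away, with 8 sites having one within 500 bp and 28 within 5000 bp. Pol II in both libraries was found at 76% of the 25 sites within 500 bp of a kept Ada2b or Sgf11 peak, at 68.0% of the next 122 sites up to 5000 bp, at 42.6% of the next 61 up to 20000 bp and at 30.3% of the 33 farther away. Over the 241 sites together, Non-stop in both libraries showed no such order, with 68%, 51.6%, 57.4% and 60.6%. These groups include the 18 sites on heterochromatic or unplaced scaffolds, where Pol II was in both libraries at 0. Of the 7 sites called in Spt3 1530_1 and 1530_2 alone, 5 were on such scaffolds, and 6 of the 7 were in the farthest group. The part of these scaffolds in the order of Pol II was not tested.

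The Spt3 libraries that called the sites changed along the same distances. Sites called in Spt3 1530_2 and 1760_2 were 68% of the nearest group, then 41.0%, 31.1% and 27.3%. Among these sites alone, Pol II in both libraries was found at 17 of 17, 49 of 50, 17 of 19 and 8 of 9. Among sites called in 1530_1 and 1760_2 it was found at 2 of 8, 22 of 51, 4 of 28 and 2 of 15. Non-stop in both libraries was found at 16 of 17, 42 of 50, 18 of 19 and 8 of 9 of the sites called in 1530_2 and 1760_2. At those called in 1530_1 and 1760_2 it rose with distance, from 1 of 8 to 10 of 51, 9 of 28 and 9 of 15.

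**Figure D5:**
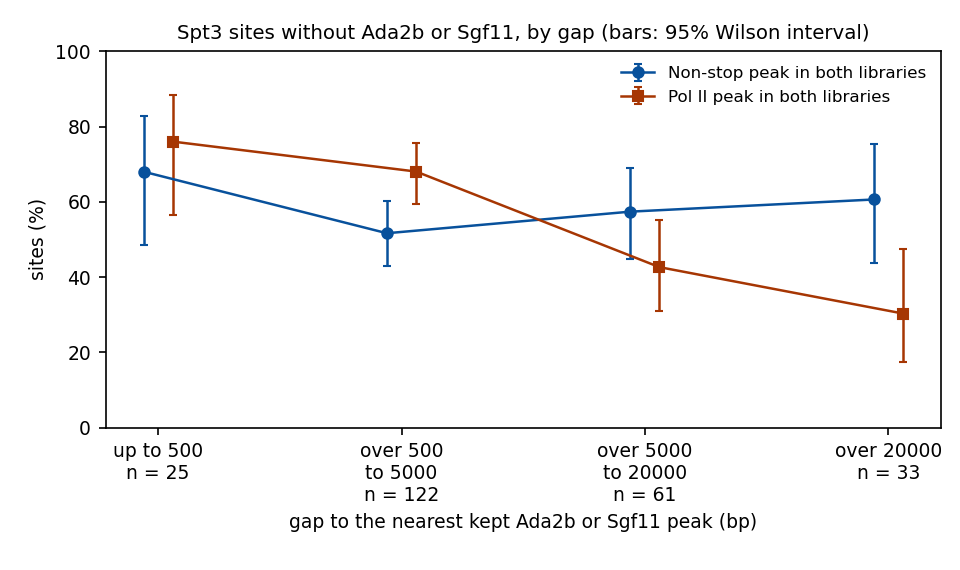
The percent of the 241 sites with a peak in both Non-stop libraries (blue circles) and both Pol II libraries (orange squares) is plotted by the gap to the nearest kept Ada2b or Sgf11 peak (horizontal axis, bp), with 95% Wilson intervals. Pol II stands at 76%, 68.0%, 42.6% and 30.3% from the nearest to the farthest group, and Non-stop between 51.6% and 68%. Sites on heterochromatic or unplaced scaffolds are included.

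Where peaks coincided, their summits were closest for Non-stop. The summit of the strongest Spt3 peak was a median of 53.5 and 66 bp from the Non-stop summits at the 241 sites, against 30 and 27 bp at the other Spt3 sites. The Pol II summits were 302 and 212 bp away at the 241 sites, against 171 and 184 bp. Between Spt3 libraries, summits at the 241 sites were a median of 24 to 57 bp apart.

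The 241 sites were spread over the genome, with 44 on 2L, 50 on 2R, 37 on 3L, 61 on 3R, 5 on 4 and 26 on X. Chromosome X held 10.8% of them, against 12.2% of the other Spt3 sites and 16.9% of all sites, and 3R held 25.3%, against 24.5% and 22.8%. The other 18 (7.47%, against 5.19% of the other Spt3 sites and 4.09% of all sites) lay on heterochromatic or unplaced scaffolds. Non-stop was called in both libraries at 10 of these 18, and Pol II in both at 0. This 0 allows a share of up to 16.7%, taken as 3 counts over 18 sites and not as a Wilson interval. On the same scaffolds, Pol II in both was found at 32.4% of the other Spt3 sites and 19.0% of all sites, and Non-stop in both at 73.9% and 61.1%. On chromosome 4, a small chromosome rich in heterochromatin, Non-stop was called in both libraries at 5 of 5 sites and Pol II in both at 0 of 5, against 60 (100%) and 42 (70%) of the 60 other Spt3 sites there. None of the 95 sites called in Spt3 1530_2 and 1760_2 was on an unplaced or heterochromatic scaffold, against 12 of the 102 called in 1530_1 and 1760_2. The other Spt3 sites of the same pairs differed in the same direction, with 4 of 438 and 23 of 415.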

How the data were processed

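Peak lists of 14 ChIP-seq libraries were analysed. Per the submitters' processing notes, CASAVA 1.8.2, Bowtie and MACS2 were used with build dm3, and the versions of Bowtie and MACS2 are not given in the sources used here. Each list belongs to 1 library, and the control of peak calling is not given. The deposited score is a whole number that rises as the q-value falls, and it ranked peaks within a list as percentiles. The authors' fold enrichment is a linear ratio of ChIP to background at the summit. The deposited −log10 p-value and −log10 q-value come from the peak caller, as does the summit offset deposited with each peak. No column was left unmapped.

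Overlaps were computed in Python 3.11.15 with NumPy 2.4.6 and pandas 2.3.3, gave the same counts as bedtools 2.31.1, and were tested on simulated lists. Intervals used SciPy 1.17.1 and figures matplotlib 3.10.9. Libraries, not sites, were the replicates of the sign-flip test. The sites and named positions were chosen with earlier results of these data known. Named were, on 2L, 3L, 3R, 4 and X, the 8 highest mean Spt3 percentiles among sites with all 3 Spt3 libraries, the 4 highest with Non-stop and Pol II in all 4 libraries, the 4 highest with Spt3 alone in all lists, the 3 widest, and 3 on each side of the overlap threshold.

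The shared numbers of Ada2b and Spt3 were taken to pair libraries. Deviations of peak percentiles from the factor mean correlated over 6040 sites at 0.17, 0.31 and 0.42 for equal numbers and between -0.37 and 0.13 for others, as a description of sites that share libraries. Deviations from a mean offset each other across libraries, so the values for equal and other numbers are not independent and are no test of the pairing.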

Additional observations from a re-analysis of the deposited data

Results flagged for a closer look

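Among the 4 Ada2b libraries, 1760_2 stood apart from the other 3 in 4 of 11 measures, by the gap to its nearest neighbour relative to the range. This criterion singles out about 1 group in 20 by chance, and all 11 measures come from the lists that chose the sites, so the values are a description and not independent evidence. Ada2b 1760_2 had a peak at 41.1% of the 241 sites, against 1.66, 1.24 and 1.66% in 1530_1, 1530_2 and 1530_3. When sites were chosen without it, it had a peak at 49.8% of them, and the others at 12.2, 8.81 and 7.78% of the sites chosen without each. Of its peaks, 57.5% were kept, against 98.2, 94.6 and 97.8%. At the other Spt3 sites its median fold was 3.54, against 3.03, 2.97 and 2.97. Its list was the longest of the 4, with 5446 peaks against 3262, 1878 and 1563, and the part of list length in these values was not tested.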

How the results depend on the processing

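Over 133 alternative values of 6 results, 112 kept their direction (differences), stayed within 1.5 times the reported value (counts) or stayed within its 95% Wilson interval (shares), 21 counts or shares moved beyond this and 0 differences turned in direction. The count of 241 sites became 38 with all 3 Spt3 libraries required, 87 with no peak in any Ada2b or Sgf11 library allowed, 155 with the replicate block and 54 in set 1530 alone (chosen after seeing the data). Leaving out single libraries gave 47 (without Spt3 1760_2) to 366 (without Sgf11 1377_2) sites. The share of sites with an Ada2b or Sgf11 peak in a single library, 63.9%, became 70.4% with 3 of 4 Ada2b libraries required, 48.2% with the upper 50% of each list, 24.1% with equal numbers of peaks and 51.9% in set 1530 alone, and 50.7 to 77.3% when single libraries were left out. The Non-stop difference ranged over 28 alternatives from -57.7 to -10.2 points, and the Pol II difference from -38.3 to -1.80 points. The Pol II difference between sites called in Spt3 1530_2 and 1760_2 and those called in 1530_1 and 1760_2 was 56.2 points, and 11.6 to 62.3 points under 16 alternatives added after seeing the data. It was smallest with equal numbers of peaks. The cause of these changes was not tested. With 2 Non-stop and 2 Pol II libraries the test cannot pass 0.05, and without reads, enrichment below the caller's limit cannot be told from none.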
